A study of Mus musculus with 4 samples.

Results

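Schlafen genes were followed in 2 mouse tumor cell lines after culture with interferon gamma (IFN-γ). The members were fixed by name: Slfn1, Slfn2, Slfn3, Slfn4, Slfn5, Slfn8, Slfn9 and Slfn10-ps. A probe was matched to a gene when the RefSeq accession the array files give for it belongs to that gene, with no use of its signal. This found 9 probes for 7 of the 8 genes, out of 26569 probes named for 20136 genes. No probe was matched to Slfn10-ps, which is not analysed here. Of the 7 genes, Slfn3, Slfn8 and Slfn9 were well above background on all 4 arrays and Slfn2 on the 2 IFN-γ arrays. Slfn1, Slfn4 and Slfn5 were not well above background on any array.

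The groups were LLC cells with IFN-γ, LLC cells with vehicle, AB1-HA cells with IFN-γ and AB1-HA cells with vehicle, each for 24 h. LLC (titled 3LL in the labels) is a lung carcinoma line of strain C57BL6, and AB1-HA is a mesothelioma line of strain BALB/c that carries influenza hemagglutinin. Line, tissue of origin and strain therefore cannot be told apart. Each group had 1 array, so a difference has no error from replicate cultures and no p-value is given. An additive fit of line and treatment, which would take the lines as replicates, was not run. The error given with a signal is the scanner software's own estimate for that spot, which covers neither culture nor labelling.

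Schlafen proteins are a mammalian family found mostly in immune cells, where several are induced by interferons and by T cell or macrophage activation. Short members (Slfn1 and Slfn2) hold the conserved N-terminal core, intermediate members (Slfn3 and Slfn4) add a linker region, and long members (Slfn5, Slfn8, Slfn9 and, outside the list, Slfn14) add a helicase-like part. Family members have been linked to quiescence of lymphocytes, to cleavage or protection of transfer RNA, and to restriction of viral protein synthesis.

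The mouse genes lie together on chromosome 11, and their start regions are shown because the members differ there in a known interferon element. RefSeq windows of build GRCm38.p6, from 250 bases before to 50 bases after a start site, were found for all 7 genes on the array. Capitals mark, on either strand, the core of the interferon-stimulated response element that IRF and STAT-IRF complexes bind, here GAAA and GAAA with any 2 bases between them. Slfn2 is at chr11:83064862-83065161 on the plus strand and Slfn5 at chr11:82951852-82952151 on the plus strand. Slfn8 is at chr11:83020761-83021060 and Slfn9 at chr11:82991781-82992080, both on the minus strand. All are written 5′ to 3′ along the gene.
Slfn2: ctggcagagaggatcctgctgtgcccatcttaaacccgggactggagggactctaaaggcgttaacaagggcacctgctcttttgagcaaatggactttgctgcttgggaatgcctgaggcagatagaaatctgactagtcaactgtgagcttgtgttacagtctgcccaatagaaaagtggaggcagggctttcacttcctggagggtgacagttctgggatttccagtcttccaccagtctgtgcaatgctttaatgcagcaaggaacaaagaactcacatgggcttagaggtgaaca
Slfn8: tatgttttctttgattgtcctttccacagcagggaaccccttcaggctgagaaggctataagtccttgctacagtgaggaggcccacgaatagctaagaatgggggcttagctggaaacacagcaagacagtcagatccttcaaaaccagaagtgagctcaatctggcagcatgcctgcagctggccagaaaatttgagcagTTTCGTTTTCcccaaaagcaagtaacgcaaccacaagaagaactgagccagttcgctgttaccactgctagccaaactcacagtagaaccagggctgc
Slfn9: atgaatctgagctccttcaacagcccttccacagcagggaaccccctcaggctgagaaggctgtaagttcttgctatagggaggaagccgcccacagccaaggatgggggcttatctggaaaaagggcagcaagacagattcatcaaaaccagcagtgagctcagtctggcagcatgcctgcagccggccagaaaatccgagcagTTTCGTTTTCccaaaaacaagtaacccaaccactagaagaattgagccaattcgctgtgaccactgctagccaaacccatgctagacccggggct
Slfn5: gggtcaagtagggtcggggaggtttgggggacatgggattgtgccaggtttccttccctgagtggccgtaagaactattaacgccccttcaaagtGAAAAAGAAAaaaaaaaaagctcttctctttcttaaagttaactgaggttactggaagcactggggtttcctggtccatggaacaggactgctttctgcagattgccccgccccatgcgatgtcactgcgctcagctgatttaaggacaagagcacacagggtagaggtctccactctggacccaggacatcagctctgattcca

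The core was present in 3 of the 7 genes, Slfn5, Slfn8 and Slfn9, and in 3.44% of all 32851 RefSeq windows of this length. In Slfn8 and Slfn9 it was the same stretch, TTTCGTTTTC, which is the element read on the opposite strand. It began 48 bases before the start site in Slfn8 and 45 bases before it in Slfn9. These windows were alike over most of their length, with 250 identical of 289 aligned bases (86.5%). A second Slfn8 window, for a start site further downstream, held the same stretch beginning 136 bases before that start. In Slfn5 the match was GAAAAAGAAA, beginning 155 bases before the start. No match was found in the windows of Slfn1, Slfn2, Slfn3 and Slfn4. The gamma-activated site core TTCNNNGAA, the form bound by STAT dimers, was in 8.30% of all windows and in none of the 7 genes. For scale, the response element core was in 22.3% of the 341 genes with a window and a gain of at least 2-fold with IFN-γ in LLC, against 3.71% of the 10667 genes with a value and a window. In AB1-HA it was in 25.4% of 299 such genes, against 3.80% of 10538. The gamma-activated site core was in 17.0% of the same higher genes in LLC, against 8.56%, and in 17.4% in AB1-HA, against 8.60%. A match describes letters in a window and does not show binding.

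Differences are on the log2 scale, or as folds, between arrays scaled to the 75th percentile of their gene probes. A difference of at least 2-fold counted as higher or lower, which is a threshold of size. A signal not well above background on 1 array gives a bound, written "at least". The bound uses the larger of that signal and its array's lowest signal well above background, and does not allow for scanner error. In a bulk culture, more RNA per cell and more cells that express a gene cannot be told apart. The Schlafen genes are close copies of each other, and the sequences of the array's probes are not used here, so cross-hybridisation between members was not tested.

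After IFN-γ, Slfn2 and Slfn8 were the Schlafen genes past 2-fold in both lines. The bound of Slfn2 lay above the value of Slfn8 in both, except under normexp in AB1-HA (1.43 for Slfn2 and 1.83 for Slfn8, log2). Slfn9 and Slfn3 were higher by less than 2-fold. In LLC, 2 of the 8 genes were at least 2-fold higher, none was lower, 2 were within 2-fold, 3 had no value and 1 had no probe. Across all genes with a value in LLC, 3.59% passed 2-fold upward and 1.36% downward. The same counts of Schlafen genes were found in AB1-HA, where 2.98% of all genes passed 2-fold upward and 1.17% downward. In LLC 72.5% of the genes past 2-fold were higher, a share that was 55.9% with array median scaling, 61.3% with quantile and 56.2% with cyclic loess normalization. Slfn2 and Slfn8 were past 2-fold in both lines, as were 1.86% of the 12450 genes with a value in both. Slfn2 has a value only because its IFN-γ arrays passed the background mark, so its gain could not have been a loss. For the 3 members measured on all 4 arrays, the median difference was 0.86 in LLC and 0.42 in AB1-HA, beside medians over all genes measured on both arrays of −0.06 and −0.08.

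**Figure D1:**
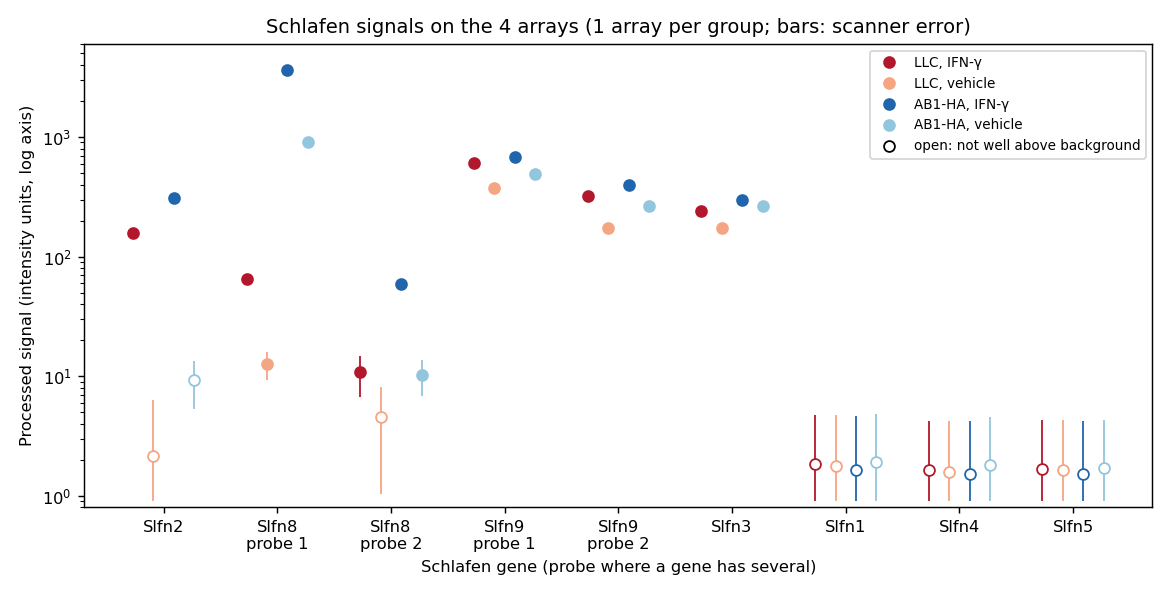
Processed signal (intensity units, log axis) of each Schlafen probe on the 4 arrays, with 1 point per array and bars for the scanner's error (cropped at the lower edge where the error exceeds the signal). Open points are not well above background. Slfn2 stands at 156 and 308 on the IFN-γ arrays of LLC and AB1-HA and is open on both vehicle arrays, while Slfn8 by probe 1 is far higher in AB1-HA than in LLC.

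Slfn2 is the short member whose loss in mice costs T cells and monocytes their quiescence. It gave 156 ± 15.8 intensity units on the LLC IFN-γ array, against 2.17 ± 4.10 on the LLC vehicle array. In AB1-HA it gave 308 ± 30.9 with IFN-γ, against 9.36 ± 4.07 with vehicle. Both IFN-γ signals were far above both vehicle signals, and neither vehicle signal was well above background. The AB1-HA vehicle spot did carry the scanner's weaker mark for a positive and significant signal, and the LLC vehicle spot did not. Against the lowest signal that passed the mark on the LLC vehicle array (7.55 before scaling), Slfn2 was at least 23.6-fold higher with IFN-γ after scaling. In AB1-HA the vehicle signal lay above that array's lowest passing signal (8.26), so the bound there is the ratio of the 2 scaled signals, 32.0-fold. Neither bound allows for the scanner error of the vehicle signal, so each gain could be lower, and the lines' gains cannot be ordered. With normexp background correction, a method that raises low signals, the bounds were 1.88 in LLC and 1.43 in AB1-HA on the log2 scale, still past 2-fold.

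Slfn1, the other short member, was first described as a gene that holds back T cell growth. Its signals were 1.85 and 1.79 units in LLC (IFN-γ, vehicle) and 1.65 and 1.92 units in AB1-HA, all below their scanner errors of 2.87 to 3.02. Slfn1 and Slfn2 thus differed on the same arrays, one without a measurable signal on any array and the other measurable with IFN-γ.

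Of the intermediate members, Slfn3, linked in rodents to differentiation of gut epithelium, was present in all groups and differed little. It gave 241 ± 24.2 units with IFN-γ against 175 ± 17.5 with vehicle in LLC, and 297 ± 29.8 with IFN-γ against 263 ± 26.3 with vehicle in AB1-HA. The IFN-γ difference was 0.66 ± 0.20 in LLC and 0.14 ± 0.20 in AB1-HA (log2, scanner error). The value in AB1-HA was smaller than its scanner error, and neither reached 2-fold. Slfn4, a gene of myeloid cells that interferons induce in mice, gave at most 1.81 units on the 4 arrays, with none well above background. That highest reading, on the AB1-HA vehicle array, carried the weaker mark but was below its scanner error of 2.76.

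Among the long members, Slfn8, a relative of human SLFN11 and SLFN13, showed both an IFN-γ difference and the widest gap between the lines. The probe annotated to transcript NM_181545 gave 64.5 ± 6.65 units with IFN-γ and 12.6 ± 3.32 with vehicle in LLC. In AB1-HA it gave 3654 ± 365 with IFN-γ and 907 ± 90.7 with vehicle. The IFN-γ array was the higher of the pair in both lines, yet AB1-HA with vehicle lay above LLC with IFN-γ. The gain was 5.83-fold in LLC (2.54 ± 0.41, log2) and 3.92-fold in AB1-HA (1.97 ± 0.20). It ranked 104 of 12881 measured genes in LLC and 176 of 12697 in AB1-HA, counted from the largest gain. Under normexp, the LLC difference was 0.59, short of 2-fold, and that in AB1-HA was 1.83.

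A second Slfn8 probe, annotated to transcript NM_001167743, gave lower signals, highest on the AB1-HA IFN-γ array and lowest on the LLC vehicle array like the first, with LLC IFN-γ and AB1-HA vehicle close together. It read 10.8 ± 4.10 units with IFN-γ and 4.56 ± 3.53 with vehicle in LLC, where the vehicle signal was not well above background. In AB1-HA it read 58.7 ± 6.11 with IFN-γ and 10.2 ± 3.35 with vehicle. Its gain was at least 1.63-fold in LLC and 5.59-fold (2.48 ± 0.50, log2) in AB1-HA. The AB1-HA value under normexp was 0.98, just short of 2-fold.

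Slfn9, the neighbor of Slfn8 with the similar start region, was present in all groups with small differences. Its brighter probe gave 601 ± 60.1 units with IFN-γ and 377 ± 37.7 with vehicle in LLC. In AB1-HA the same probe gave 680 ± 68.0 with IFN-γ and 494 ± 49.4 with vehicle. The differences were 1.82-fold in LLC (0.86 ± 0.20, log2) and 1.34-fold in AB1-HA (0.42 ± 0.20). The other Slfn9 probe was at 2.13-fold in LLC (1.09 ± 0.20) and 1.46-fold in AB1-HA (0.54 ± 0.20), so that in LLC the 2 probes fell on either side of 2-fold. That probe's LLC value was 0.95 with array median scaling and 0.83 with normexp. Slfn8 and Slfn9 share the response element core printed above. By its brighter probe Slfn8 had the larger gain of the pair in both lines, except under normexp in LLC, where Slfn8 was at 0.59 and Slfn9 at 0.84. The bound of the second Slfn8 probe in LLC lies below the values of both Slfn9 probes and does not order them.

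Slfn5, a long member that interferons induce in many cell types, gave 1.53 to 1.70 units on the 4 arrays, all below the scanner error. Its window holds a response element core. It was read by 1 probe, annotated to transcript NM_183201. Outside the member list, the long member Slfn14 gave 1.56 to 1.73 units and the distant relative Slfnl1 1.51 to 1.69 units, none well above background.

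**Figure D2:**
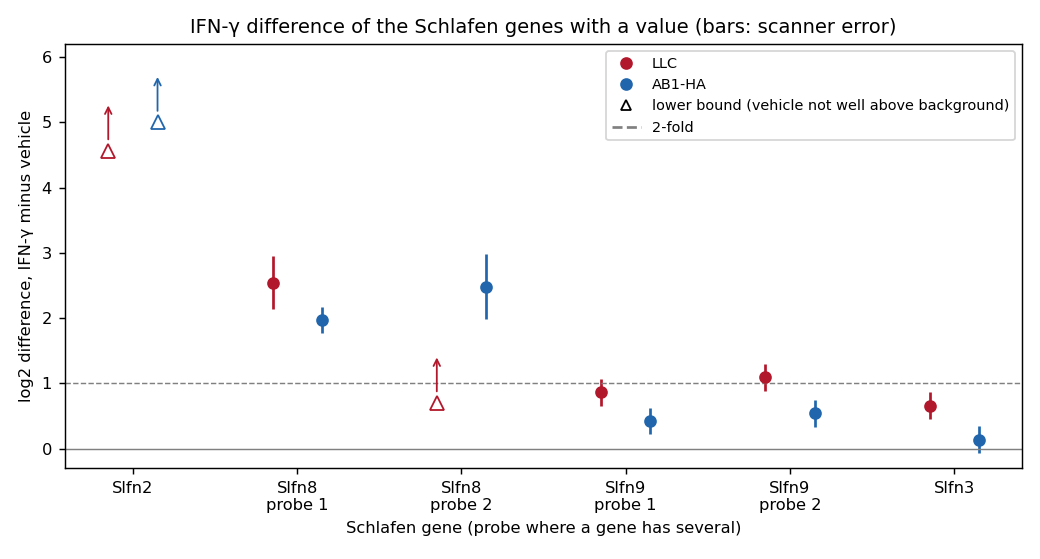
The log2 difference between IFN-γ and vehicle for each Schlafen probe with a value, LLC in red and AB1-HA in blue, with bars for the scanner error and open triangles with arrows for lower bounds. The bounds of Slfn2 are 4.56 in LLC and slightly more in AB1-HA, Slfn8 lies between 1.97 and 2.54 by probe 1, and Slfn9 and Slfn3 near or below the dashed 2-fold line.

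**Figure D3:**
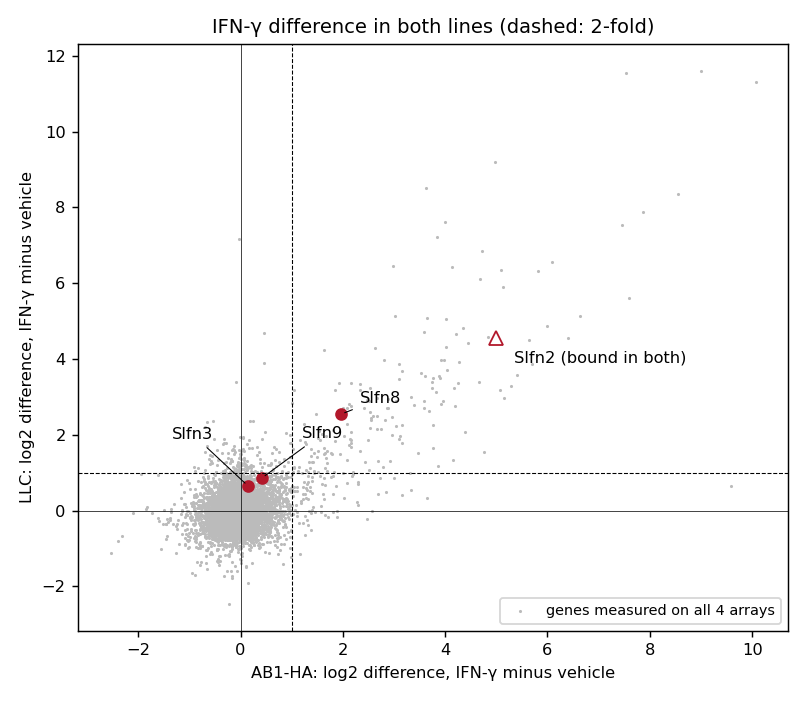
The IFN-γ difference in LLC (vertical axis, log2) against that in AB1-HA (horizontal axis, log2) for genes measured on all 4 arrays, in grey. Slfn8 lies past the dashed 2-fold lines on both axes, Slfn9 and Slfn3 lie inside them, and the open triangle shows the 2 bounds of Slfn2.

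Between the lines, every Schlafen gene with a value was lower in LLC than in AB1-HA, though Slfn9 with IFN-γ lay within its scanner error. The medians over all genes with a value were −0.05 with vehicle and 0.03 with IFN-γ (log2). Only Slfn8 passed 2-fold at the scaling used here. On the vehicle arrays, Slfn8 was 83.2-fold lower in LLC (−6.38 ± 0.41, log2), with 0.312% of 12190 measured genes further toward AB1-HA. On the IFN-γ arrays it was 55.9-fold lower (−5.80 ± 0.21). Its second probe was at least 1.57-fold lower in LLC with vehicle and 5.38-fold lower with IFN-γ. Under normexp, the gaps of the first probe were −3.16 with vehicle and −4.41 with IFN-γ, and that of the second probe with IFN-γ was −0.62, short of 2-fold. The gaps of the first probe are larger than its IFN-γ difference in either line.

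The other members lay within 2-fold between the lines. Slfn3 was at −0.80 ± 0.20 with vehicle and −0.28 ± 0.20 with IFN-γ, LLC minus AB1-HA on the log2 scale. Slfn9 was at −0.60 ± 0.20 with vehicle and −0.16 ± 0.20 with IFN-γ. Slfn2 was at −0.96 ± 0.21 on the IFN-γ arrays, and at −1.09 with array median scaling and −1.03 with quantile normalization, past 2-fold. It had no value on the vehicle arrays. With vehicle, 1 of 3 Schlafen genes with a value was at least 2-fold lower in LLC, where 15.9% of all genes were that much lower and 16.4% that much higher. With IFN-γ, 1 of 4 was at least 2-fold lower, where 13.1% of all genes were lower and 15.4% higher.

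The IFN-γ differences of the lines were set against each other for the 3 members measured on all 4 arrays. The difference in LLC exceeded that in AB1-HA by 0.57 ± 0.46 for Slfn8, 0.52 ± 0.29 for Slfn3 and 0.44 ± 0.29 for Slfn9 (log2, scanner error), and none reached 2-fold. Over all 11982 genes so measured, 2.54% were at least 2-fold further toward LLC and 1.69% at least 2-fold further toward AB1-HA. Of the genes past 2-fold here, 304 lay toward LLC and 203 toward AB1-HA, while those toward LLC were 39.9%, 47.9% and 36.2% with array median, quantile and cyclic loess scaling. For Slfn8 the direction was not stable, at −1.25 under normexp and −0.24 with the mean over its probes. Normexp, which raises low signals, took its LLC difference from 2.54 to 0.59 and its AB1-HA difference from 1.97 to 1.83. The mean takes in the second probe, whose LLC vehicle signal was not well above background.

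Along chromosome 11, no flanking gene with a value had a gain like those of Slfn2 and Slfn8. Of the 10 named genes on the array that flank the cluster, 5 on each side, 6 had a value in each line and none passed 2-fold. Their IFN-γ differences were −0.29 to 0.43 in LLC and −0.17 to 0.21 in AB1-HA. They included Rad51d, a recombination gene (−0.29 in LLC and −0.13 in AB1-HA), and the ribosome assembly gene Nle1 (0.22 and −0.13). One non-coding RNA gene inside the cluster, AI662270, is named here after its values were seen. It gave 1.96 and 3.99 units in LLC (IFN-γ, vehicle), not well above background, and 1723 and 1666 units in AB1-HA. It was at least 255-fold lower in LLC with vehicle and at least 209-fold lower with IFN-γ, and its IFN-γ difference in AB1-HA was 0.01. It lies between Slfn3 and Slfn14 in the gene order, and its neighbor Slfn3 had line differences within 2-fold.

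**Figure D4:**
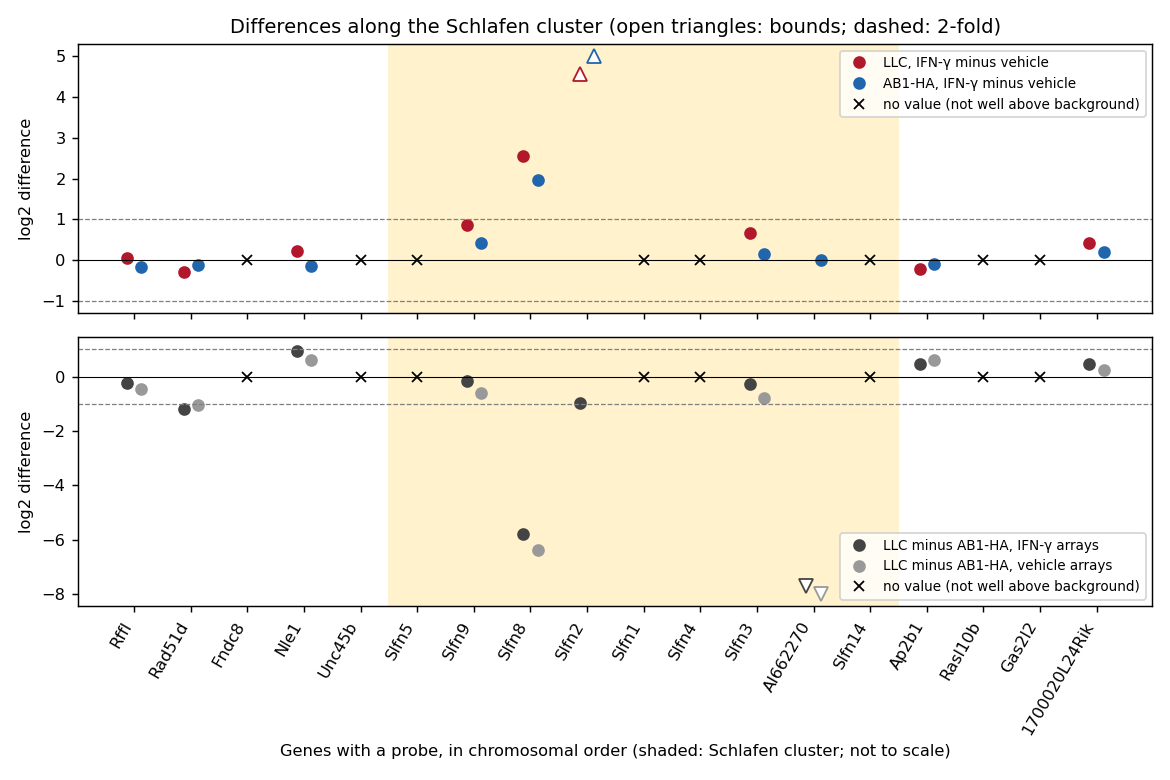
Log2 differences of genes with a probe in chromosomal order (9 of the 10 flanking genes are drawn), with the Schlafen cluster shaded, for IFN-γ against vehicle (top) and LLC against AB1-HA (bottom). Open triangles are bounds and crosses are genes without a value. In the top panel Slfn2 and Slfn8 stand above 2-fold while the flanking genes lie near 0, and in the bottom panel Slfn8 and AI662270 lie far below 0.

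Genes of IFN-γ signalling were also read, and their part in the Schlafen differences was not tested. In a list of IFN-γ signalling genes and regulators, 8 of 13 with a value were past 2-fold with IFN-γ in LLC (median 2.02). In AB1-HA 7 of 12 were (median 2.34), all upward in both lines. Over all genes, 3.59% in LLC and 2.98% in AB1-HA passed 2-fold upward. Listed genes within 2-fold included Ifngr1 (−0.41 in LLC and −0.02 in AB1-HA) and Jak1 (−0.17 and −0.02). IRF1 is a factor that binds the response element, and its gene Irf1 was 21.6-fold higher in LLC and 21.8-fold higher in AB1-HA. Stat2, a partner in the complex ISGF3, was 8.76-fold and 14.1-fold higher. Irf7, the type I interferon amplifier, was at least 34.8-fold higher in LLC and 6.48-fold higher in AB1-HA. Irf8, an IRF of myeloid cells, was 4.07-fold higher in LLC and not well above background in AB1-HA.

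Type I interferons also induce Schlafen genes. Of 10 listed interferon, receptor and kinase genes, 6 had a value and none was at least 2-fold higher or lower in either line (median 0.24 in LLC, 0.01 in AB1-HA). Ifnb1, the interferon beta gene, gave 1.75 and 1.65 units in LLC (IFN-γ, vehicle), not well above background. In AB1-HA it gave 8.25 units with IFN-γ, just past the mark, and 1.72 units with vehicle.

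Antiviral interferon-stimulated genes were mostly higher with IFN-γ in both lines and, like Slfn8, mostly lower in LLC than in AB1-HA. With IFN-γ, 21 of 23 genes with a value passed 2-fold upward in LLC (median 3.46) and 22 of 22 in AB1-HA (median 3.44). Over all genes, 3.59% in LLC and 2.98% in AB1-HA did. The LLC count holds bounds, such as those of Zbp1 and Oasl2, which could not have come out lower. Between the lines with vehicle, 17 of 22 were at least 2-fold lower in LLC and 1 higher (median −3.30), beside the 15.9% of all genes given above. With IFN-γ, 18 of 23 were lower and 2 higher (median −1.90), beside 13.1% of all genes lower and 15.4% higher. Both counts between the lines hold bounds, which could only come out lower in the line whose signal did not pass the mark. The translational inhibitor Oasl1 was 344-fold lower in LLC with vehicle and Ifit1, which binds viral RNA, at least 77.4-fold lower.

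Lists of genes for processes in which Schlafen proteins act held few genes past 2-fold with IFN-γ. Their counts are too small to set apart from the shares over all genes. Those shares were 3.59% upward and 1.36% downward in LLC, and 2.98% and 1.17% in AB1-HA. For tRNA cleavage and repair, 0 of 17 genes with a value passed 2-fold in LLC and 1 of 17 in AB1-HA. Ang, which encodes the ribonuclease angiogenin, was at 0.22 in LLC and 0.62 in AB1-HA. For amino acid and ribosome stress, 1 of 10 in LLC and 1 of 11 in AB1-HA was higher, in both cases Eif2ak2, the kinase PKR (2.41-fold and 2.65-fold). None of 10 replication stress genes, a list built around partners named for human SLFN11, passed 2-fold in either line. Among quiescence and growth arrest genes, 0 of 13 passed in LLC and 1 of 12 in AB1-HA, the lymphocyte quiescence factor Klf2 (3.51-fold higher). The medians of these lists lay between −0.15 and 0.04 in both lines.

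Genes whose levels ran most like a member's over the 4 arrays were sought by Euclidean distance of centred log2 values, among 11979 genes well above background on all arrays. For Slfn8 they were Cytip, a cytohesin partner of leukocytes (distance 1.19), Plac8 (1.52) and the peptide hormone gene Cck (1.56). Cytip was at −5.11 for LLC minus AB1-HA with vehicle, and at 1.52 in LLC and 1.65 in AB1-HA for IFN-γ minus vehicle, on the log2 scale. For Slfn9 they were Sbno2 (0.13), Utrn (0.13) and Irak2 (0.15), and for Slfn3 they were Mxd3 (0.05), Bmx (0.06) and Slurp2 (0.10). Slfn3 and Slfn9 were 0.29 apart, with 2.52% of genes nearer to Slfn3, and Slfn8 was 5.85 from Slfn3, with 99.1% of genes nearer to Slfn3. Slfn9 was 5.94 from Slfn8, with 21.6% of genes nearer to Slfn8. These are descriptions over 4 points from 1 slide.

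On each array 57.5% to 58.2% of probes passed the background mark and no gene spot was saturated, while the 75th percentile was 1598 units on the LLC vehicle array and 1380 to 1419 on the others. Since Schlafen genes are known in leukocytes, 18 leukocyte markers were checked, of which 17 had a probe. Between 6 and 7 were well above background on each array (Cd3e, Cd4, Itgam, Itgax, Csf1r, Fcer1g and Nkg7 on at least 1), while Ptprc, Cd3g, Lyz2, Adgre1 and Tyrobp were not on any. Their summed signal over 16 markers was 4972 and 4600 units in LLC (IFN-γ, vehicle) and 5168 and 4820 units in AB1-HA, most of it from Itgam (3198 to 3698 units). The sum leaves out Cd4, which had no value on the LLC vehicle array. Cd4 gave 2766 units in LLC with IFN-γ, and 2707 and 2374 units in AB1-HA (IFN-γ, vehicle). Itgax was at 260 and 330 units in LLC (IFN-γ, vehicle) and not well above background in AB1-HA. The part of these markers in the Schlafen differences was not tested. With IFN-γ, 1 of 6 leukocyte markers with a value passed 2-fold upward in LLC (Csf1r, 3.35-fold, the macrophage growth factor receptor) and 0 of 6 in AB1-HA. Of 9 mesothelial markers, Msln was at 50.1 and 154 units in LLC (IFN-γ, vehicle) and 38827 and 50299 units in AB1-HA, and Krt19 and Pdpn were likewise lower in LLC, while Krt8 and Krt18 were 172-fold and 485-fold higher in LLC with vehicle. Wt1, Upk3b, Lrrn4 and Calb2 were not well above background on any array. Of 10 lung epithelial markers, Krt8, Krt18 and Scgb1a1 were well above background on every array, except Krt8 on the AB1-HA IFN-γ array, and Sftpc, Sftpb, Nkx2-1, Epcam and Cdh1 were not on any array. With IFN-γ, 1 of 5 mesothelial markers with a value was at least 2-fold lower in LLC and 2 of 5 in AB1-HA, and of lung epithelial markers 0 of 3 in LLC and 2 of 3 in AB1-HA. The 2 genes in AB1-HA were the same in both lists, Krt8 (at least 6.49-fold, a bound) and Krt18 (2.86-fold). Over all genes, 1.36% in LLC and 1.17% in AB1-HA were that much lower.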

How the data were processed

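RNA of 4 samples was measured on 1 slide of 1-colour (Cy3) Agilent arrays, 1 array per group. Whether a sample pooled several cultures is not stated in the labels. The deposited intensity values are background-subtracted signals of Agilent Feature Extraction (version 10.7.1.1, per the file headers), without normalization between arrays. The deposited table of log2 values is the authors', with processing not given in the sources used here. Its columns correlated at 0.999 with the scaled signals centred per probe on the median, its direction was that of the signal, and its column medians were 0.08 and −0.13 for LLC (IFN-γ, vehicle) and −0.08 and 0.11 for AB1-HA.

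Outlier spots were left out, spots of a probe averaged, and log2 signals set against the array's own 75th percentile (1380 to 1598 units). Probes were named by unversioned accession through a GRCm38.p6 RefSeq table, while the array annotation is of mm9. A gene with several probes took the one with the highest mean. Named were all members with their probes, flanking genes, the 3 nearest patterns, and for each list the largest differences. Calls were tested on simulated data with noise near that between repeat spots, which checks the code and holds no culture or labelling error. The alternatives were 3 other scalings, normexp (offset 50, on median spot signals), the value table, stricter or no background filter, the mean over probes, and saturated or outlier spots. Some genes are not reported here by name. Members and lists were chosen with earlier results of these data known. Slide and scan time were shared by all arrays. The number of arrays limits the precision. Python 3.11.15 with pandas 2.3.3 and R 4.3.3 with limma 3.58.1 were used.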

Additional observations from a re-analysis of the deposited data

How the results depend on the processing

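No fit with the line as a block was run. It would take the lines as replicates of the treatment, and each line by treatment group holds 1 array. Of 98 counts of Schlafen genes past 2-fold under the alternatives, 90 stayed within 1.5 times the value reported. The count higher with IFN-γ was 1 in place of 2 in each line over genes measured on every array compared, which leaves out Slfn2, and 1 in LLC under normexp. The count lower in LLC was 2 in place of 1 on the IFN-γ arrays with array median and quantile scaling, and 2 on the vehicle arrays without a background filter. For the difference of the lines' IFN-γ differences, 1 gene passed toward LLC without a background filter and 1 toward AB1-HA under normexp, where none did otherwise. Slfn8 turned direction there, to −1.25 under normexp and −0.24 with the mean over probes. Of 252 single differences, 239 kept their direction and side of 2-fold. Many of these checks could not move. No gene spot was saturated, a background filter leaves a measured difference as it is, and a gene with 1 probe is its own mean. Neither tally is therefore a measure of stability. Without a background filter or in the authors' table, the second Slfn8 probe in LLC was at 1.43, and at −1.38 and −1.37 between the lines with vehicle, past 2-fold. Medians over all genes shifted with scaling. With array median scaling they were −0.20 (−0.06 as reported) for IFN-γ in LLC, −0.10 (0.03) between the lines with IFN-γ and −0.11 (0.03) for the difference of differences, and with cyclic loess 0.09 (−0.05) between the lines with vehicle.

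Over all genes, normexp gave 21 lower genes in LLC and 20 in AB1-HA, against 182 and 154, and 254 and 260 higher, against 480 and 394. No background filter gave 891 and 722 higher and 487 and 588 lower. In LLC, array median scaling, cyclic loess and the authors' table gave 308, 314 and 277 lower. Between the lines, normexp gave 1494 higher and 1410 lower in LLC with vehicle, against 2275 and 2196, and 1359 and 1210 with IFN-γ, against 2136 and 1823. For the difference of IFN-γ differences (304 toward LLC, 203 toward AB1-HA), normexp gave 133 and 76, no filter 1392 and 880, cyclic loess 183 and 323, and array median scaling 319 toward AB1-HA. Slfn2 with vehicle was not well above background and Slfn8 in LLC was near it, which limits their values.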
